A study of Mus musculus with 12 samples.

Results

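The mitochondrial ribosome and the mitochondrial protein import machinery were followed here as 100 genes of the 13552 in the table, taken by name: every gene symbol that begins with Mrpl, Mrps, Timm or Tomm and a digit, with pseudogene names left out. There were 48 Mrpl genes (large subunit of the mitochondrial ribosome), 29 Mrps genes (small subunit), 14 Timm genes (import across and into the inner membrane) and 9 Tomm genes (outer membrane). The name does not fix the complex in every case. Tomm34 encodes a cytosolic co-chaperone, Mrps36 is now placed in the 2-oxoglutarate dehydrogenase complex, and Tomm6os is a transcript from the strand opposite Tomm6, which itself was not analysed here. The hearts came from male C57BL/6 mice that were wild-type (WT) or carried Bcl-xL with alanine in place of serine at residue 14 (S14A knock-in, KI), and were taken 9 h after transverse aortic constriction (TAC), which raises the pressure load on the left ventricle, or after sham surgery. Sham and TAC mice of either genotype made 4 groups of 3 mice, 12 in all, each a separate animal named by its number in the labels, with an age of 8 to 10 weeks at surgery per the study's methods. All 4 groups had the same strain background, and the sham mice were operated on as well. The KI line was bred with CMV-Cre mice to remove its selection cassette and then backcrossed, whereas the WT mice were purchased, so genotype and origin of the animals cannot be told apart, and the study's text on the sequencing describes the KI mice as homozygous, which the labels do not give. The substitution is a point change, so the RNA level of the targeted gene does not check the genotype labels.

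Mitochondria make only a few hydrophobic subunits of the respiratory chain themselves, on a ribosome whose RNAs come from the mitochondrial genome and whose proteins are all encoded in the nucleus. These ribosomal proteins, like nearly all other mitochondrial proteins, are synthesised in the cytosol and enter through the translocase of the outer membrane (TOM), where Tomm20, Tomm22 and Tomm70 act as receptors and Tomm40 forms the channel. Matrix proteins then pass the TIM23 complex and its motor, multispanning carriers are inserted by the TIM22 complex, and small chaperones of the intermembrane space escort hydrophobic cargo between the membranes. The heart, with its dense mitochondria and constant demand for ATP, expresses both systems at high levels.

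Values were read numbers scaled to exon length and to library size (RPKM), as the authors deposited them. The depth recovered from these values was 23650429 to 32455160 reads per mouse. In these hearts the 7 cardiomyocyte markers examined, sarcomere genes among them, summed to between 12783 and 22936 RPKM in the 12 mice. In bulk tissue, fewer cells of a type and less RNA per cell cannot be told apart. Fold changes are differences of log2(RPKM + 1), tested with limma over 11240 genes (at least 3 of the mice at 1 RPKM or above), and a gene was called when its Benjamini-Hochberg adjusted p was under 0.05. Of the members, 99 entered the test. Tomm6os did not, with 0.457 RPKM on average, so that 8 Tomm genes were tested.

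Levels differed widely between members. The mean over 12 mice was highest for Timm8b, a small intermembrane space chaperone, with 79.3 RPKM, followed in their classes by Mrpl34 with 62.9, Mrps21 with 57.9 and Tomm5, a small TOM subunit, with 45.6 RPKM. The lowest tested Timm, Mrps and Mrpl genes were Timm10b with 1.14, Mrps10 with 1.27 and Mrpl48 with 1.81 RPKM. The median was 11.5 RPKM for Mrpl, 6.40 for Mrps, 13.3 for Timm and 8.31 for Tomm genes, and 53 of the 100 members reached 10 RPKM. Per exon length, the RNA of Mrpl34 was 34.8 times that of Mrpl48. Over the 100 members, RPKM and exon length had a Spearman coefficient of -0.61, while the recovered read number and exon length had -0.02. Both are descriptions over genes of the same libraries, and short members thus had the higher RPKM.

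The members moved together from mouse to mouse. WT sham mouse 1 held the highest value of its group for 88 of the 99 members and KI sham mouse 2 for 87, against 53.5% and 41.8% of all genes tested. WT sham mouse 1 also had the lowest share of recovered reads on genes of the mitochondrial genome, 6.36% against 9.76% to 12.5% in the other 11 mice, and its part in the members' values was not tested. WT TAC mouse 9 was the lowest of its group for 73 members and KI TAC mouse 5 for 85, against 51.9% and 54.9% of all genes tested. KI TAC mouse 5 was low over all genes, with a median deviation from the 12-mouse means of -0.21 on the log2 scale beside -0.17 over the members. The mean of log2(RPKM + 1) over the Mrpl genes was 3.94, 3.65 and 3.60 in WT sham mice 1, 2 and 3, and 3.39, 3.24 and 3.62 in WT TAC mice 7, 9 and 10. It was 3.53, 4.01 and 3.64 in KI sham mice 1, 2 and 3, and 3.42, 3.79 and 3.72 in KI TAC mice 5, 6 and 7. For the Mrps genes the group means were 3.23 ± 0.195 in WT sham, 2.98 ± 0.123 in WT TAC, 3.25 ± 0.223 in KI sham and 3.25 ± 0.185 in KI TAC (SD, n = 3). In neither class did any of the 4 groups stand clear of the group it was compared with, because WT TAC mouse 10 reached into the sham range and KI TAC mouse 5 lay with the WT TAC mice.

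**Figure D1:**
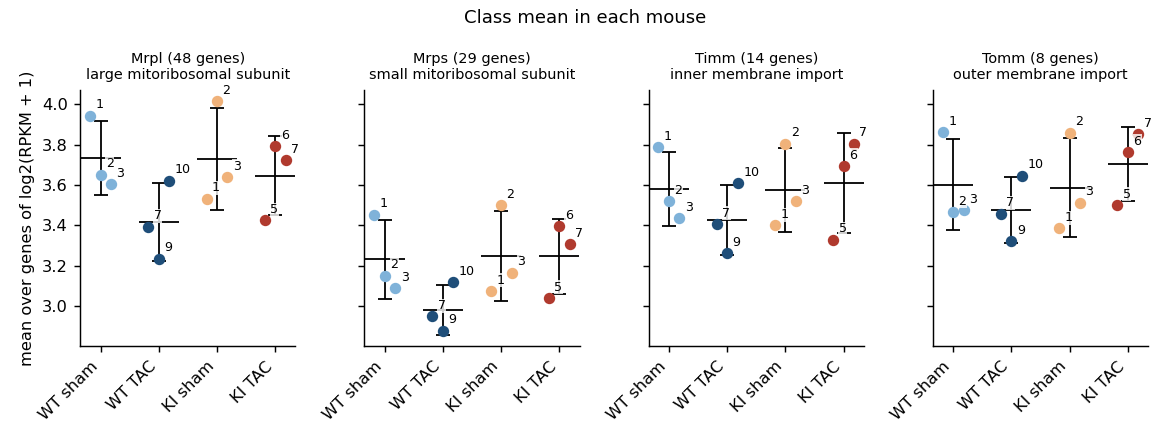
Mean over the tested genes of a class of log2(RPKM + 1) in each mouse (points, numbered as in the labels) for the 4 groups, with the group mean and SD (n = 3) as black bars. WT sham mouse 1 and KI sham mouse 2 lay above their groups in all 4 classes, and the ranges of the groups overlapped.

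In WT sham mouse 1, KI sham mouse 2 and WT TAC mouse 9, short genes in general deviated in the same direction as the members. With the tested genes split by exon length into 5 bins, the median deviation from each gene's mean over 12 mice was 0.24 in the shortest bin and -0.09 in the longest in WT sham mouse 1, and 0.26 and -0.18 in KI sham mouse 2. WT TAC mouse 9 had the opposite slope, with -0.19 and 0.07. KI TAC mouse 5 was low in both bins, with -0.14 and -0.20. The trend with length also separated the 2 TAC groups. The shortest bin minus the longest was -0.15, -0.26 and -0.20 in WT TAC mice 7, 9 and 10. In KI TAC mice 5, 6 and 7 it was 0.06, 0.16 and 0.19. The members are short, with a median exon length of 2596 bases against 4282.5 over all genes tested, and 46 of the 99 fell into the shortest bin. The median member deviated by 0.33 in WT sham mouse 1, by 0.35 in KI sham mouse 2 and by -0.31 in WT TAC mouse 9, further than the shortest bin in each. Each comparison of TAC mice is therefore also given relative to the genes of the same length bin.

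**Figure D2:**
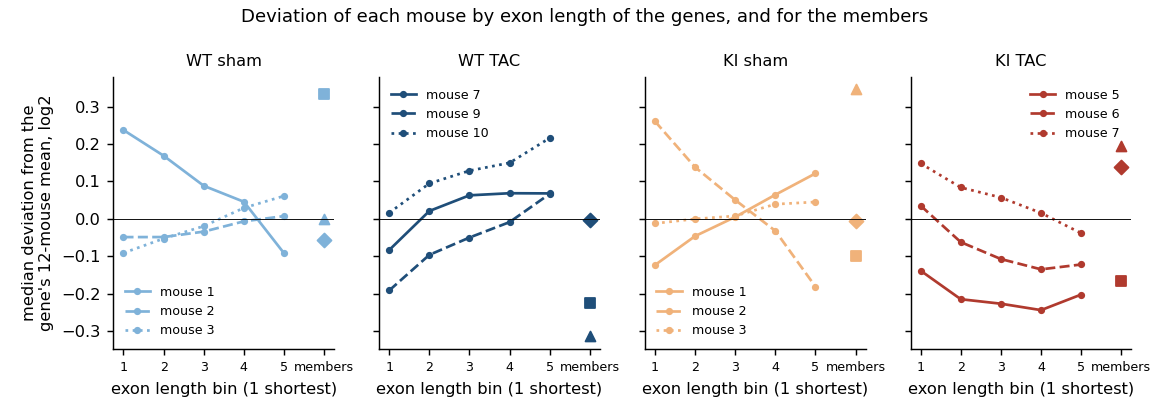
Median deviation of each mouse from the genes' 12-mouse means (log2 scale) by exon length bin, 1 holding the shortest and 5 the longest genes, with the median over the 99 members at the right (square, triangle and diamond for the mice in the order of the legend). WT sham mouse 1 and KI sham mouse 2 fall from short to long genes. The WT TAC mice rise, while in the KI TAC mice the longest bin lies below the shortest. The members lie beyond the shortest bin in WT sham mouse 1, KI sham mouse 2 and WT TAC mouse 9.

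Whether 9 h of pressure overload changed these genes in WT hearts was asked first. In WT TAC hearts most members lay below WT sham by a small amount: 83 of 99 had a negative log2 fold change, with a median of -0.28, beside 0.04 over all genes tested. Only 2 members passed the test. Tomm70a, the receptor that takes metabolite carriers from cytosolic chaperones, rose, and Mrpl39, a protein of the large subunit, fell. These were 1 of 99 higher, where 6.96% of all genes tested were higher, and 1 of 99 lower, where 4.60% were lower. The medians by class were -0.33 for Mrpl, -0.26 for Mrps, -0.21 for Timm and -0.25 for Tomm genes. All 3 TAC mice lay below all 3 sham mice for 23 members (14 Mrpl, 7 Mrps and 2 Timm), against 15.0% of all genes, and above them for 2, against 20.0%. Relative to the median of their own exon length bin, 87 members were lower and 12 higher, with a median difference of -0.25. Single mice decided some of these numbers: without WT sham mouse 1 the members' median was -0.19, without WT TAC mouse 10 the test called 6 members lower (6.32% of all genes in the same fit), and without KI sham mouse 1 or 2, which share only the estimate of the spread, it called 2 (5.26%) or 3 (4.74%). Without WT sham mouse 3 (3.62%) or WT TAC mouse 7 (3.50%) it called 0 higher. Of the 7 cardiomyocyte markers, 1 was called lower in WT TAC, Myh6 (myosin heavy chain, -1.15, limma, adjusted p = 0.0129), beside 4.60% of all genes. The other 6 did not pass, with Tnni3 at -0.84, Myl2 at -0.76, Pln at -0.50, Tnnt2 at -0.31, Ryr2 at -0.09 and Actc1 at 0.42, and the part of such shifts in the members' values was not tested.

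Mrpl39 (ENSMUSG00000022889) showed the largest change of any member after TAC in either genotype. Its level was 40.4, 34.7 and 26.9 RPKM in WT sham mice 1, 2 and 3 and 11.0, 7.97 and 16.4 RPKM in WT TAC mice 7, 9 and 10. It was 27.5, 32.8 and 31.9 RPKM in KI sham mice 1, 2 and 3 and 11.5, 13.3 and 8.74 RPKM in KI TAC mice 5, 6 and 7. Every TAC mouse of either genotype lay below every sham mouse. The log2 fold change was -1.48 ± 0.24 (SE, limma, Benjamini-Hochberg adjusted p = 0.00224) in WT, a level 0.357 times that of sham on the log2(RPKM + 1) scale. In KI it was -1.39 ± 0.24 (SE, limma, adjusted p = 0.00138), 0.380 times that of sham. The call held in both genotypes under all 20 alternatives run for each, with adjusted p from 0.000609 to 0.0180 in WT and from 0.000503 to 0.00917 in KI. The gene lies on the minus strand of chromosome 16 (84717576 to 84735742, GRCm38) and overlaps no other annotated gene.

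Tomm70a (ENSMUSG00000022752) moved the other way. Its level was 5.11, 5.61 and 4.92 RPKM in the WT sham mice and 8.47, 8.74 and 8.33 RPKM in the WT TAC mice. In the KI sham mice it was 6.97, 5.28 and 5.69 RPKM, and in the KI TAC mice 10.4, 10.2 and 11.5 RPKM. No TAC mouse overlapped the sham mice, and the 3 KI TAC mice were also above the 3 WT TAC mice. The log2 fold change was 0.62 ± 0.15 (SE, limma, adjusted p = 0.0153) in WT and 0.75 ± 0.15 (SE, limma, adjusted p = 0.00274) in KI. In WT the call was lost without WT sham mouse 3 (log2 fold change 0.58, adjusted p = 0.0694) and without WT TAC mouse 7 (0.62, adjusted p = 0.0593), while the 18 other alternatives kept it, and adjusted p over all 20 ran from 0.0131 to 0.0694. In KI all 20 alternatives kept it, with adjusted p from 0.000416 to 0.0188. Between the TAC groups the log2 difference was 0.30 (95% confidence interval -0.01 to 0.61, limma, adjusted p = 0.183), and it was called under 2 of 20 alternatives, median-ratio scaling and removal of the exon length trend, with adjusted p from 0.0186 to 0.349. The 3' end of Tomm70a (chromosome 16, 57121703 to 57156705, plus strand, GRCm38) overlaps that of Nit2 on the other strand. The libraries were directional but the strand setting of the counting is not given in the sources used here, so reads in that overlap cannot be assigned with certainty. The log2 fold change of Nit2 was -0.52 in WT (limma, adjusted p = 0.0580) and did not pass the test.

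**Figure D3:**
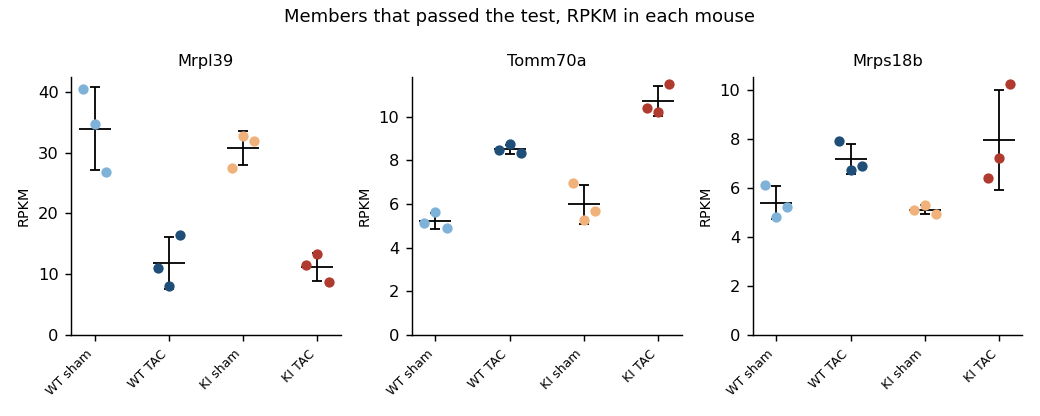
RPKM of Mrpl39, Tomm70a and Mrps18b in each mouse (points) of the 4 groups, with the group mean and SD (n = 3) as black bars and each axis starting at 0. Mrpl39 lay between 7.97 and 16.4 RPKM in the 6 TAC mice and between 26.9 and 40.4 RPKM in the 6 sham mice.

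The promoters of the called members are printed because genes of the mitochondrial ribosome and of import are textbook targets of NRF1, of the ETS factor GABP and of YY1, and the called members moved in opposite directions. Each is the RefSeq sequence (GRCm38.p6) from 250 bases before to 50 bases after a RefSeq start, 5' to 3' on the strand of the gene: chr16:84735195-84735494 on the minus strand for Mrpl39, chr16:57121464-57121763 on the plus strand for Tomm70a and chr17:35916391-35916690 on the minus strand for Mrps18b. Capitals mark matches to NRF1 (GCGCATGC), ETS (CCGGAAG) or YY1 (AAGATGGC) letters on either strand.
Mrpl39: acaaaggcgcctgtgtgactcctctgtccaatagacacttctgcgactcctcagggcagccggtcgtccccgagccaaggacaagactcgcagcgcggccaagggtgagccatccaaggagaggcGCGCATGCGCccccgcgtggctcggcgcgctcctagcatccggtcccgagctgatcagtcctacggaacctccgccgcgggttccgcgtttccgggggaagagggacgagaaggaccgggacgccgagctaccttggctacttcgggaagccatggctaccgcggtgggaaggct
Tomm70a: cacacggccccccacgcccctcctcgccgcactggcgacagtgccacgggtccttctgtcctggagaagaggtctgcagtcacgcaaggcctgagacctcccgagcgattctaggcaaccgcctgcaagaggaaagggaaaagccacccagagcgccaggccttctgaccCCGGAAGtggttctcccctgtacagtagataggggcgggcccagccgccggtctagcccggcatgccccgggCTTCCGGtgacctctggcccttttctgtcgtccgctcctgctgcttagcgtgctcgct
Mrps18b: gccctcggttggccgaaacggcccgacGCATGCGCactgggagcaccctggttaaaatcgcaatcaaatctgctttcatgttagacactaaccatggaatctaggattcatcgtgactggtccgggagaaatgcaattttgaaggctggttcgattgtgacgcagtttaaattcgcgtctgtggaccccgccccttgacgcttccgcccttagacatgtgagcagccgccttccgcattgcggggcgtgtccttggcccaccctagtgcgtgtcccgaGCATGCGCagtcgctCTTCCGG
The RefSeq start is not always the gene end given in the annotation used for exon lengths: the Mrpl39 window lies inside the annotated gene, and that of Mrps18b lies just upstream of it. With the base at the RefSeq start counted as 0, Mrpl39 held the NRF1 letters at -125 and, overlapping them on the other strand, at -123. Tomm70a held the ETS letters at -80 and again, on the other strand, at -8. Mrps18b held the NRF1 letters at -223 and 28 and the ETS letters at 43, all on the other strand. Promoters were found for 88 of the 100 members, 96 sequences in all. The ETS letters were in 35.4% of them, against 17.0% of the promoters of genes tested and 8.86% of all 32851 promoters. The YY1 letters were in 13.5% (4.42% of genes tested, 2.75% of all) and the NRF1 letters in 9.38% (5.11% and 2.71%). At least 1 of the 3 motifs was present in 47 members and none in 41. A match is a description of the sequence and is not evidence of binding.

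In KI hearts the members as a group lay near their sham level after TAC. There 42 members had a positive and 57 a negative log2 fold change, with a median of -0.03, beside -0.10 over all genes tested. The test called 2 members higher, against 8.57% of all genes, and 1 lower, against 14.7%. Those higher were Tomm70a and Mrps18b, 1 of the 3 small subunit proteins related to bacterial S18, and the one lower was Mrpl39. The medians by class were -0.06 for Mrpl, -0.02 for Mrps, 0.06 for Timm and 0.06 for Tomm genes. The KI TAC mice lay all below the KI sham mice for 11 members, against 24.7% of all genes, and all above them for 4, against 13.6%. With quantile normalization the members' median became 0.02 and with median-ratio scaling it became 0.10, so its direction depended on the scaling. Median-ratio scaling moved the median of all genes by 0.13, and relative to all genes the members stood at 0.07 as deposited, 0.07 with median-ratio scaling and 0.04 with quantile normalization. The split of calls became 6 higher (13.8% of all genes) and 1 lower with median-ratio scaling and 5 higher (12.1%) and 1 lower with quantile normalization. The shares of all genes called lower under these scalings are not given here. Relative to their exon length bin, 53 members were higher and 46 lower, with a median difference of 0.01. Leaving out KI sham mouse 2 (members' median 0.11) or KI TAC mouse 5 (0.06) also made the members' median positive. The test called 4 members higher when KI TAC mouse 5 was left out (7.38% of all genes), and without WT sham mouse 2 or 3, WT TAC mouse 7, KI sham mouse 1 or 3, or KI TAC mouse 6 or 7 it called 1 (5.23% to 7.62%). Without WT TAC mouse 10, KI sham mouse 1, or KI TAC mouse 6 or 7 it called 2 lower (9.62% to 17.1%).

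Mrps18b (ENSMUSG00000024436) was 5.07, 5.30 and 4.93 RPKM in the KI sham mice and 6.40, 7.19 and 10.2 RPKM in the KI TAC mice. In the WT sham mice it was 6.12, 4.80 and 5.23 RPKM and in the WT TAC mice 7.89, 6.73 and 6.89 RPKM. The TAC mice lay above the sham mice in both genotypes. The log2 fold change was 0.53 ± 0.17 (SE, limma, adjusted p = 0.0394) in KI and 0.36 ± 0.17 (SE, limma, adjusted p = 0.191) in WT. The KI call was near the threshold and was lost under 10 of 20 alternatives, over which adjusted p ran from 0.00405 to 0.120. Among these it was lost without any one of WT sham mice 2 (adjusted p = 0.0533) and 3 (0.0582), WT TAC mouse 7 (0.0539), KI sham mice 1 (0.0812), 2 (0.0680) and 3 (0.120), and KI TAC mice 6 (0.0609) and 7 (0.116). Without KI TAC mouse 7, the highest, the log2 fold change was 0.35. The gene lies on chromosome 17 (35910379 to 35916389, minus strand, GRCm38), where the noncoding gene Gm16279 overlaps it on the other strand.

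The direct comparison of the TAC hearts asked whether the S14A substitution altered these genes under pressure overload. Of 99 members, 79 were higher in KI TAC than in WT TAC, with a median log2 difference of 0.24, beside -0.12 over all genes tested, but no member passed the test. The counts called by limma were thus 0 higher and 0 lower, where 2.92% and 8.13% of all genes were called. With limma-voom on recovered reads they were also 0 and 0, and its share of all genes is not given here. At an unadjusted p under 0.05, limma gave 13 members (13.1%), all of them higher, against 30.3% of all genes in either direction by limma. Limma-voom also gave 13 members, again without its share of all genes. All 3 KI TAC mice lay above all 3 WT TAC mice for 23 members (14 Mrpl, 5 Mrps, 1 Timm and 3 Tomm), against 10.1% of all genes, and below them for 1, against 19.4%. The medians were 0.24 for Mrpl, 0.24 for Mrps, 0.10 for Timm and 0.22 for Tomm genes, and 28 of 29 Mrps genes were positive. Relative to their exon length bin, 87 members were higher and 12 lower, with a median difference of 0.28. The members' median was 0.16 without WT TAC mouse 9 and 0.16 without KI TAC mouse 6. Of the 7 cardiomyocyte markers, 2 were called higher in KI TAC, Tnni3 (0.95, limma, adjusted p = 0.0384) and Myl2 (0.86, 0.0447), beside 2.92% of all genes. The other 5 did not pass and differed in sign, with Myh6 at 0.76, Tnnt2 at 0.65, Ryr2 at -0.20, Actc1 at -0.24 and Pln at -0.28, and the part of these markers was likewise not tested.

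These calls depended on how the mice were scaled against each other. With median-ratio scaling 18 members were called higher (6.70% of all genes) and with quantile normalization 9 were (4.65%), none being lower under either. Median-ratio scaling moved the median of all genes by 0.15 and quantile normalization by 0.12. Relative to all genes the members' median stood at 0.36 as deposited, 0.38 with median-ratio scaling and 0.35 with quantile normalization. In the comparison of WT TAC with WT sham, the same scalings called 1 member higher in each and 5 (6.42% of all genes) and 7 (7.20%) lower, where the deposited scale gave 1 of each direction. The shares of all genes called higher there are not given here. Without WT sham mouse 1, without KI sham mouse 1 or without KI sham mouse 2, none of which belongs to the TAC groups, 2 members were called higher in KI TAC, through the shared estimate of the spread, with 3.09% to 3.17% of all genes. Without WT TAC mouse 10 (1.54%) or KI TAC mouse 5 (1.90%), 1 was.

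Mrpl28, a large subunit protein, had the largest positive difference, and is named after its values were seen. It was 24.9, 19.6 and 22.6 RPKM in the WT TAC mice and 35.8, 44.7 and 44.4 RPKM in the KI TAC mice, with no overlap. The sham mice spread far more widely, with 58.0, 35.7 and 33.2 RPKM in WT and 29.0, 67.9 and 41.5 RPKM in KI. Its log2 difference was 0.87 ± 0.28 (SE, limma, adjusted p = 0.0602), which did not pass. It was called under 7 of 20 alternatives, over which adjusted p ran from 0.0201 to 0.178. These were median-ratio scaling (1.06), quantile normalization (0.91), removal of the exon length trend (0.75), and leaving out WT sham mouse 1 (adjusted p = 0.0468), KI sham mouse 1 (0.0392), KI sham mouse 2 (0.0339) or the first and last of these together (0.0201). Mrps21, a small subunit protein, was next in order, with 39.6, 42.5 and 38.3 RPKM in the WT TAC mice and 64.9, 85.5 and 64.7 RPKM in the KI TAC mice (log2 difference 0.81 ± 0.27 SE, limma, adjusted p = 0.0638). Among the alternatives, Mrps21 was called with median-ratio scaling (adjusted p = 0.0366), quantile normalization (0.0443) and without WT sham mouse 1 and KI sham mouse 2 (0.0235).

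**Figure D4:**
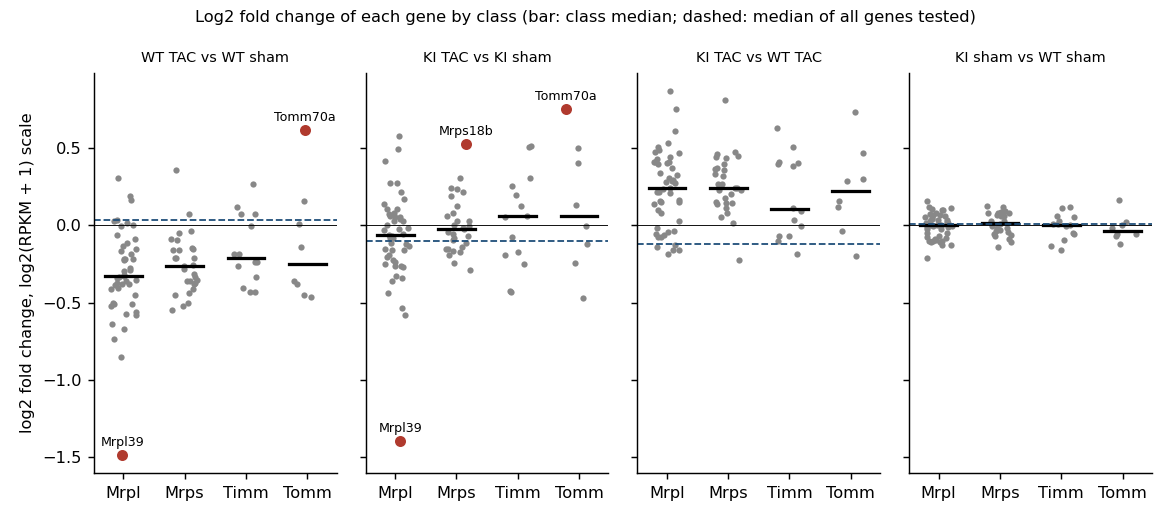
Log2 fold change of each tested member (points) by class in 4 comparisons, on the log2(RPKM + 1) scale, with the class median as a black bar, the median of all genes tested as a dashed line and called members in red with their names. The class medians lay below the dashed line in WT TAC vs WT sham and above it in KI TAC vs WT TAC, while the sham groups differed by at most 0.21 for any member.

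After sham surgery no difference between the genotypes was detected in these genes. Between KI sham and WT sham, limma called 0 of 99 members (0.0178% of all genes were called), limma-voom called 0, and 0 members reached an unadjusted p under 0.05 with either, where limma gave 0.329% of all genes. Log2 differences ran from -0.21 to 0.16 with a median of 0.00. The 95% confidence intervals were wide, with a median half-width of 0.44, ranging from 0.25 to 0.65 between members.

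The test of the difference itself, the interaction of genotype and surgery, called 0 members with limma (0% of all genes were called) and 0 with limma-voom. It gave 4 members at an unadjusted p under 0.05 with limma (14.8% of all genes). With limma-voom it gave 3, and the share of all genes in that fit is not given here. The median interaction was 0.22 over the members and -0.13 over all genes, and 78 of 99 were positive. No member's response to TAC was thus shown to differ by genotype. The median interaction was 0.13 without WT sham mouse 1, 0.14 without KI sham mouse 1, 0.36 without KI sham mouse 2 and 0.34 without KI TAC mouse 5. Tomm70a had an interaction of 0.14 (95% confidence interval -0.30 to 0.58) and Mrpl39 one of 0.09 (-0.64 to 0.82).

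Among the Timm and Tomm genes, limma on the deposited scale called Tomm70a alone. Mean log2(RPKM + 1) of the 3 receptors went from 2.99 ± 0.135 in WT sham to 3.21 ± 0.135 in WT TAC and from 3.04 ± 0.154 in KI sham to 3.45 ± 0.233 in KI TAC (SD, n = 3), with overlapping ranges in both. Tomm20, which binds presequences, was 8.72, 6.53 and 6.81 RPKM in WT sham, 8.35, 7.72 and 8.76 in WT TAC, 6.29, 8.73 and 6.15 in KI sham and 7.39, 11.7 and 12.5 in KI TAC. Its log2 fold change was 0.50 ± 0.20 (SE, limma, adjusted p = 0.0877) in KI and 0.16 ± 0.20 (SE, limma, adjusted p = 0.646) in WT, so neither passed. The KI value was called with median-ratio scaling (adjusted p = 0.0138), quantile normalization (0.0257) and removal of the exon length trend (0.0140), and the 2 mice at 11.7 and 12.5 RPKM were the highest of the 12. Tomm22, the central receptor, averaged 8.88 ± 1.62, 8.08 ± 2.21, 9.21 ± 2.72 and 9.07 ± 1.91 RPKM in the sham and TAC groups of WT and then of KI (SD, n = 3), differences within its spread.

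The channel and the small TOM subunits were not called by limma on the deposited scale. Tomm40, the channel, averaged 26.5 ± 2.53, 26.8 ± 2.64, 25.7 ± 6.21 and 24.2 ± 9.68 RPKM in the same order, and its paralog Tomm40l 6.95 ± 1.66, 4.79 ± 0.925, 6.81 ± 1.15 and 4.61 ± 0.445 RPKM (SD, n = 3). The log2 fold change of Tomm40l was -0.45 in WT (limma, adjusted p = 0.135) and -0.47 in KI (adjusted p = 0.0849), neither past the threshold. Tomm5 averaged 50.7 ± 17.0, 35.7 ± 7.18, 46.6 ± 16.1 and 49.4 ± 5.09 RPKM. Tomm7, which with Tomm5 stabilises the complex, was 7.64, 8.11 and 10.5 RPKM in WT TAC and 12.2, 20.5 and 13.7 RPKM in KI TAC. These ranges did not overlap, with a log2 difference of 0.73 ± 0.25 (SE, limma, adjusted p = 0.0730) that did not pass. It was called with median-ratio scaling (adjusted p = 0.0331), quantile normalization (0.0439) and without WT sham mouse 1 and KI sham mouse 2 (0.0456). Tomm34, the cytosolic co-chaperone, averaged 5.96 ± 1.41, 4.35 ± 0.366, 5.89 ± 0.647 and 4.81 ± 0.261 RPKM.

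At the inner membrane limma called no Timm gene on the deposited scale, with 3 of 14 at an unadjusted p under 0.05 in KI TAC vs KI sham (36.8% of all genes) and 2 in KI TAC vs WT TAC (30.3%). Timm23, the channel for presequence proteins, was 69.6, 47.3 and 47.6 RPKM in WT sham, 39.3, 40.6 and 48.6 in WT TAC, 42.0, 60.6 and 46.6 in KI sham and 45.5, 72.2 and 69.3 in KI TAC. The ranges of the TAC groups overlapped through KI TAC mouse 5, and the log2 difference between them was 0.51 ± 0.23 (SE, limma, adjusted p = 0.156). With median-ratio scaling Timm23 (adjusted p = 0.0409) and Timm44 (0.0452) were called higher in KI TAC than in WT TAC. Timm50, the receptor of that complex, averaged 16.5 ± 0.756, 13.9 ± 2.38, 17.0 ± 3.89 and 14.8 ± 1.65 RPKM in the sham and TAC groups of WT and then of KI, and Timm21, which links it to TOM, 4.35 ± 0.387, 3.50 ± 0.915, 4.59 ± 0.452 and 3.21 ± 0.903 RPKM (SD, n = 3). Timm44, which tethers the import motor to the channel, averaged 18.8 ± 2.20, 16.1 ± 4.35, 20.4 ± 2.75 and 21.5 ± 5.15 RPKM. For the TIM22 complex, Timm22 averaged 5.99 ± 1.39, 5.24 ± 1.66, 5.91 ± 0.495 and 4.91 ± 1.42 RPKM and Timm29 36.4 ± 4.59, 27.1 ± 1.28, 32.3 ± 1.56 and 24.3 ± 6.35 RPKM. Timm29 was below sham in all 3 WT TAC mice, at 28.6, 26.2 and 26.6 against 41.6, 34.2 and 33.3 RPKM, with a log2 fold change of -0.40 ± 0.19 (SE, limma, adjusted p = 0.189).

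**Figure D5:**
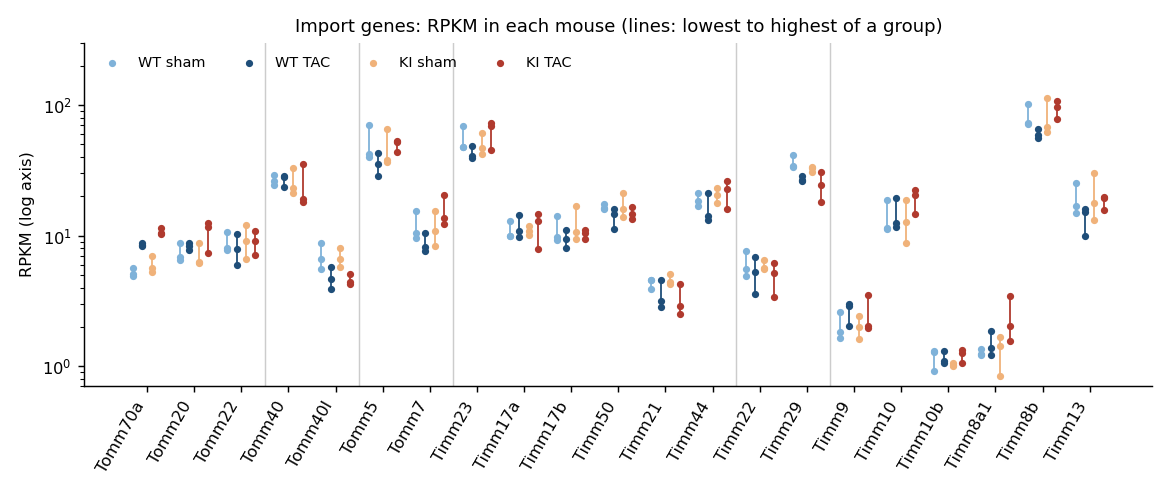
RPKM on a log axis of the import genes in each mouse (points), with a line from the lowest to the highest mouse of each group. Grey lines separate TOM receptors, TOM channel, small TOM subunits, TIM23 with its motor, TIM22 and the small chaperones, and for Tomm70a the TAC mice lie above the sham mice in both genotypes.

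The small chaperones of the intermembrane space differed widely in level, and limma called none on the deposited scale. Timm8b was 58.6, 65.8 and 55.5 RPKM in WT TAC and 77.7, 108 and 96.7 RPKM in KI TAC, with no overlap and a log2 difference of 0.63 ± 0.24 (SE, limma, adjusted p = 0.0976). It was called with median-ratio scaling (adjusted p = 0.0438) and without WT sham mouse 1 and KI sham mouse 2 (0.0378). Its paralog Timm8a1 lay between 0.835 and 3.46 RPKM over the 12 mice, with a log2 fold change in KI of 0.51 (limma, adjusted p = 0.0777) that was called with median-ratio scaling (0.0190), quantile normalization (0.0212) and removal of the exon length trend (0.0255), and Timm8a2 was not analysed here. Timm13, the partner of the Timm8 proteins, averaged 19.0 ± 5.46, 13.7 ± 3.24, 20.4 ± 8.87 and 18.3 ± 2.22 RPKM in the 4 groups. Of the partners Timm9 and Timm10, the former averaged 2.03 ± 0.502, 2.64 ± 0.543, 2.02 ± 0.400 and 2.51 ± 0.877 RPKM and the latter 13.8 ± 4.29, 14.5 ± 4.17, 13.5 ± 5.06 and 19.1 ± 4.04 RPKM (SD, n = 3). Timm10b averaged between 1.03 and 1.22 RPKM in the groups. It overlaps Arfip2 among other annotated genes, so its low value carries the same limit on strand as Tomm70a. In all, 48 of the 100 members overlap an annotated gene on the opposite strand.

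Ratios between paralogs within a mouse do not depend on the scaling of the libraries. They were not corrected for the exon length trend of each mouse. Timm17a and Timm17b are alternative subunits of TIM23. Their RPKM ratio was 0.927, 1.01 and 1.05 in the WT sham mice and 1.16, 1.19 and 1.30 in the WT TAC mice, so the WT groups did not overlap. It was 1.13, 0.712 and 0.964 in the KI sham mice and 0.834, 1.22 and 1.33 in the KI TAC mice, where they did. The exact two-sided permutation test gave p = 0.1 in WT, the smallest that 3 against 3 mice allow, and p = 0.4 in KI, and Benjamini-Hochberg adjustment over the 28 ratio tests gave 0.40 and 0.747. The ratio of Tomm40 to Tomm40l was 3.34, 3.96 and 4.41 in WT sham and 5.95, 6.07 and 4.98 in WT TAC, again without overlap (exact permutation p = 0.1, adjusted 0.40). In KI sham it was 3.65, 4.07 and 3.52, and in KI TAC 4.46, 3.55 and 7.99, with overlap (exact permutation p = 0.3). Of the 3 S18-related genes, Mrps18b was higher relative to both others in the WT TAC mice. The ratio to Mrps18a averaged 0.569 ± 0.0906 in WT sham and 0.924 ± 0.160 in WT TAC, and that to Mrps18c 2.20 ± 0.189 and 3.44 ± 0.642 (SD, n = 3, exact permutation p = 0.1 for each). In KI the ratio to Mrps18a averaged 0.570 ± 0.142 and 0.718 ± 0.131, with overlap. The ratio of Timm8b to Timm8a1 fell in WT, from 64.3 ± 9.52 to 42.3 ± 12.2 (SD, n = 3, exact permutation p = 0.1). Every ratio run separated WT TAC from WT sham without overlap, also those of Tomm70a to Tomm20 and to Tomm22, which are not paralogs. None separated KI TAC from KI sham, so the separation in WT was not particular to any paralog pair. No design of this size can reach an exact p under 0.05, so these ratios are descriptions.

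Genes of mitochondrial translation outside the naming rule were counted from lists. A list of ribosomal proteins with other names held 6 genes, among them Dap3 and Ptcd3 of the small subunit. It also counted Mterf4, which is a ribosome assembly factor and not a ribosomal protein. Of the 6, 0 were called by limma in any comparison, with 3 at an unadjusted p under 0.05 in WT TAC vs WT sham, where 27.9% of all genes were. Their median was -0.35 there and -0.03 in KI. Of 32 translation and ribosome assembly factors, 0 were called in WT (7 at an unadjusted p under 0.05, against the same 27.9%) and 6 fell in KI, where 14.7% of all genes did. The largest falls there were of Mrm1, a methyltransferase of mitochondrial ribosomal RNA, from 8.36, 10.8 and 8.95 RPKM in KI sham to 2.99, 2.18 and 5.33 in KI TAC (log2 fold change -1.26 ± 0.26 SE, limma, adjusted p = 0.00370), and of Mrm2, another rRNA methyltransferase (-1.04 ± 0.33 SE, adjusted p = 0.0381). Between the TAC groups Mrm1 was the only gene of the 32 called, lower in KI (5.92 to 9.60 RPKM in WT TAC, limma, adjusted p = 0.0270), where 8.13% of all genes were lower. The median of this list was -0.33 in WT and -0.31 in KI, beside 0.04 and -0.10 over all genes tested. Of 17 aminoacyl-tRNA synthetases, 2 fell in each genotype (4.60% of all genes in WT, 14.7% in KI), Cars2 (-0.49, limma, adjusted p = 0.0379) and Vars2 (-0.48, 0.0480) in WT and Vars2 (-0.79, 0.00196) and Aars2 (-0.60, 0.0277) in KI, and the medians were -0.30 in both.

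Import genes under other names and the regulators gave further values. Among 28 import genes, 1 was called in each comparison of TAC mice. Of all genes, 4.60% were lower in WT, 8.57% higher in KI and 2.92% higher in KI TAC than in WT TAC. Mipep, a peptidase that trims imported proteins, fell in WT (-0.60 ± 0.17 SE, limma, adjusted p = 0.0335). Hsp90aa1, the inducible cytosolic chaperone that hands carriers to Tomm70, rose in KI (1.99 ± 0.54 SE, limma, adjusted p = 0.0186), from 10.1, 8.56 and 6.07 RPKM to 99.1, 25.1 and 17.0 RPKM. In WT it was 2.41, 9.90 and 9.62 RPKM in sham and 25.6, 30.1 and 16.8 RPKM in TAC mice (1.74, adjusted p = 0.0536, not passing). Romo1, a small inner membrane protein, was higher in KI TAC than in WT TAC (1.15 ± 0.30 SE, limma, adjusted p = 0.0290). Of 17 regulators of mitochondrial genes, 2 rose in WT, Myc (1.97, limma, adjusted p = 0.00846) and the coactivator Pprc1 (0.95, 0.0202), and 3 rose in KI, with Myc (3.19, 0.000206) and Pprc1 (1.16, 0.00381) the largest, where 6.96% and 8.57% of all genes rose. Another 7 of the 17 fell in KI, beside 14.7% of all genes, led by the coactivators Ppargc1b (-1.95, limma, adjusted p = 0.00526) and Ppargc1a (-1.49, 0.00518). Between the TAC groups Myc was higher (1.50, 0.0353) and Ppargc1b lower (-1.92, 0.0168) in KI. These were 1 of 17 in each direction, where 2.92% of all genes were higher and 8.13% lower. Of 12 mRNAs of the mitochondrial genome, mt-Co3 fell in WT (-1.95, limma, adjusted p = 0.0436) but ranged from 14.3 to 145 RPKM within WT sham, and mt-Atp6 was higher in KI TAC than in WT TAC (1.11, 0.0350). Each was the only 1 of the 12 called there, beside 4.60% of all genes lower in WT and 2.92% higher in KI TAC. The interaction and the comparison of the sham groups called no gene of the 6 lists.

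Markers of other cell types differed between sham and TAC groups. The 4 macrophage and leukocyte markers summed to between 61.3 and 107 RPKM in WT sham, 126 and 180 in WT TAC, 67.0 and 90.0 in KI sham and 73.3 and 99.97 in KI TAC, of which 3 were tested, Ptprc not passing the filter on low values. Cd68 (1.22, limma, adjusted p = 0.00601) and Lyz2 (0.99, 0.0228) were called higher in WT TAC, with Csf1r at 0.33 not passing. In KI TAC vs KI sham, Csf1r was called lower (-0.53, limma, adjusted p = 0.0419), with Cd68 at 0.65 (0.0647) and Lyz2 at 0.09 (0.837) not passing. In KI TAC vs WT TAC, Csf1r was again called lower (-0.91, limma, adjusted p = 0.00913), with Cd68 at -0.55 (0.143) and Lyz2 at -0.84 (0.05002, just above the threshold) not passing. The 2 neutrophil markers measured (of 4 listed) summed to between 0.103 and 0.791 RPKM in the sham mice and between 2.48 and 18.5 in the TAC mice, with 1 called higher in WT (6.96% of all genes) and 2 in KI (8.57%). The 5 fibroblast markers summed to between 109 and 164 RPKM in WT sham and 131 and 602 in WT TAC, and the 7 cardiomyocyte markers to between 14822 and 19756 and between 12783 and 22936. In WT TAC mouse 10, Col1a1 made up 461 of the 602 RPKM and Actc1 19135 of the 22936 RPKM. Actc1 was most of the cardiomyocyte sum in every mouse. Myh6, Myl2 and Tnni3 lay below all WT sham mice in all 3 WT TAC mice, while the rest of the 7 overlapped. In KI the cardiomyocyte sum lay between 16069 and 19134 RPKM in sham and 15482 and 21504 in TAC, with Pln called lower after TAC (-0.93, limma, adjusted p = 0.0281). Fibroblast markers summed to between 130 and 215 in KI sham and 88.5 and 162 in KI TAC. Of these 5, 1 was called lower, Lum (-1.14, limma, adjusted p = 0.0476), beside 14.7% of all genes. The others did not pass and differed in sign, with Col1a1 at -0.61, Col1a2 at -0.43, Dcn at -0.30 and Pdgfra at 0.23. The 4 red blood cell markers summed to 124 to 140, 65.3 to 94.8, 113 to 208 and 85.2 to 226 RPKM in the sham and TAC groups of WT and then of KI. Of 4 brown adipocyte markers listed, Cidea and Ppara were measured, the latter also expressed by heart muscle, and their sum was 35.5 to 50.6, 24.0 to 38.8, 34.0 to 40.6 and 15.4 to 31.2 RPKM in the same order, without overlap in KI. Ppara was called lower in KI TAC vs KI sham (-1.50, limma, adjusted p = 0.00230), with Cidea at 0.30 not passing. The 4 endothelial markers summed to between 223 and 320 RPKM in all mice. The part of these shifts in the members' values was not tested.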

How the data were processed

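RNA was measured in 12 mouse hearts by poly(A)-selected, directional RNA-seq, sequenced as single reads of 75 bases. The deposited table gives RPKM values per gene, which the authors made from reads aligned to GRCm38; the submitters' processing notes list Trimmomatic 0.39, HISAT2 2.2.1, HTSeq 0.6.1, edgeR 3.18.1 and limma 3.32.10. The strand setting of the counting is not given in the sources used here. All 12 sample columns were mapped by title, and 0 were left out. RPKM carries no read number, so reads were recovered from the steps between low values and the exon lengths of GENCODE, and were used for depth, shares of reads, the relation of read number to exon length and 1 alternative. Between 96.4% and 98.3% of low values came out whole within 0.05 reads.

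Values were tested as log2(RPKM + 1) with limma 3.58.1 (R 4.3.3) over genes with 3 or more mice at 1 RPKM or above, with the 4 groups in 1 fit, contrasts, a mean-variance trend and Benjamini-Hochberg adjustment over the 11240 genes. This scale understates the change of low genes. Replicates are separate mice. Named members were the called ones, at most 3 in each class and direction, the highest and lowest of each class by mean RPKM, the core TOM and TIM subunits, and paralog pairs. For the other lists the limit was 2. The members and lists were chosen with earlier results of these data known, and no test over a list was run. Alternatives were a pseudocount of 0.1, no filter, median-ratio scaling, quantile normalization, limma-voom on recovered reads, an adjusted p of 0.10, a fit of the 2 groups compared, a replicate block and leaving out each mouse. Removal of an exon length trend and leaving out WT sham mouse 1 with KI sham mouse 2 were chosen after seeing the data. Python 3 with scipy gave the exact permutation tests.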

Additional observations from a re-analysis of the deposited data

How the results depend on the processing

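With 1.5 times as the tolerance for a count of called members and 0.199 (SD between mice of the members' mean, log2) for their median, 270 values under an alternative stayed within it and 40 did not, and no called member reversed. Within that tolerance the median of KI TAC vs KI sham changed sign, from -0.03 to 0.10 with median-ratio scaling. Members called in WT TAC vs WT sham numbered 1 higher and 1 lower; the share of all genes called at each setting stands in parentheses. At an adjusted p of 0.10 there were 9 lower (7.86%), with median-ratio scaling 5 (6.42%), with quantile normalization 7 (7.20%), in a fit of the 2 groups compared 2 (4.16%), and with the exon length trend removed 2 higher (8.05%) and 8 lower (7.14%). Leaving out each mouse gave 0 to 1 higher (3.48% to 7.72%) and 1 to 6 lower (1.81% to 6.32%). In KI TAC vs KI sham (2 higher, 1 lower) the same settings gave 5 higher (11.5%) and 4 lower (20.9%) at 0.10, 6 higher with median-ratio scaling (13.8%), 5 with quantile normalization (12.1%), 1 in the fit of 2 groups (7.30%), and 7 higher (14.6%) and 2 lower (13.3%) with the length trend removed, and leaving out each mouse gave 1 to 4 higher (5.23% to 9.38%) and 1 to 2 lower (7.70% to 17.1%). In KI TAC vs WT TAC (0 higher) they gave 8 at 0.10 (5.67%), 18 with median-ratio scaling (6.70%), 9 with quantile normalization (4.65%), 9 with the length trend removed (5.58%), 6 without WT sham mouse 1 and KI sham mouse 2 (3.75%), and 0 to 2 on leaving out each mouse (0.436% to 3.33%). Lower calls in that comparison, and calls in the sham comparison and the interaction, kept to 0 in every alternative run. The cause of these changes was not tested. A replicate block was possible only for the sham groups, which share mouse numbers. With the replicate block 0 members were called in either direction, as without it. Deviations of same-numbered mice correlated at -0.22, -0.30 and 0.44, and those of other pairs of sham mice at -0.35 to 0.43. With 3 mice a group, these values cannot decide whether equal numbers mark paired mice. The precision is that of 3 mice a group: the median member's 95% interval reached 0.44 to either side on the log2 scale.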
